A study of Mus musculus with 14 samples.

Results

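The cytosolic nucleic acid sensors described here are 9 genes, taken by symbol from a read count table of 22116 named genes: Rigi, Ifih1, Dhx58, Mavs, Zbp1, Eif2ak2, Cgas, Sting1 and Zc3hav1. All 9 were found under these symbols, and all 9 passed the filter on low counts that left 15159 genes to test. Poly(A) RNA had been sequenced from the spleens of 14 wild-type female BALB/c mice, 6 to 8 weeks old, after skin treatments that serve as models of psoriasis-like inflammation. The control group was 3 mice with petrolatum, the vehicle, on back and ears; the series' design text calls them untreated. The imiquimod-dorsal group was 4 mice with 5% imiquimod cream on the back each day for 5 days, and the imiquimod-ear group was 4 mice with the same cream on the ear. The IL-23-ear group was 3 mice whose ear skin received recombinant mouse IL-23 in 4 injections within 7 days, each of 1 µg per ear. Imiquimod is an agonist of Toll-like receptor 7, an endosomal RNA receptor, and IL-23 is a cytokine that sustains type 17 T cells. The libraries are taken as 1 per mouse, since they are described as biological replicates, and are named below by group and replicate number.

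Cells read foreign or misplaced nucleic acid in the cytosol through a small set of proteins. RIG-I (gene Rigi) and MDA5 (Ifih1) are helicases that bind RNA duplexes and signal through the mitochondrial adaptor MAVS, while LGP2 (Dhx58), their relative, lacks the signalling domains and tunes the other two. PKR (Eif2ak2) is a kinase that stops translation when it binds RNA duplexes, ZBP1 binds Z-form nucleic acid and can start necroptosis, and ZAP (Zc3hav1) binds CpG-rich RNA and directs its decay. On the DNA side, cGAS makes the second messenger cGAMP, which opens signalling through STING. MAVS and STING lead through the kinases TBK1 and IKKε to type I interferon. Interferon in turn is known to raise the mRNA of several of the sensors through the transcription factor ISGF3.

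ISGF3 binds the interferon-stimulated response element, and sequences around the transcription starts are shown because the members fell into those with and without a match to the core of this element. The core searched was GAAA, any 2 bases and GAAA again, on both strands (TTTC, any 2 bases and TTTC on the other), with overlapping matches counted, from 250 bases before to 50 bases after the canonical start in GENCODE release 39 on GRCm39, the build named in the submitters' processing notes. The letters are those of the reference genome, not of BALB/c, and run 5′ to 3′ on the gene's strand, with matches in capitals. Zbp1 (chr2:173060742-173060825, minus strand) held 4 matches in overlapping pairs, the farthest of them 91 bases before the start. In Dhx58 (chr11:100595082-100595111, minus strand) the match spans the start, in Rigi (chr4:40239804-40239833, minus strand) it begins 11 bases after the start base, in Eif2ak2 (chr17:79189964-79189993, minus strand) 29 bases after it and in Ifih1 (chr2:62476548-62476577, minus strand) 40 bases after it.
Zbp1: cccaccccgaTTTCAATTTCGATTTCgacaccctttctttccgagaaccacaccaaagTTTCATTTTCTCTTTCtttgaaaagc
Dhx58: cctccccttgTTTCAGTTTCatttctagag
Rigi: cctgaggcagTTTCGATTTCctatggccag
Eif2ak2: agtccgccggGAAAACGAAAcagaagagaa
Ifih1: gaagagaatcGAAACAGAAAccgatctgtg
Mavs, Cgas, Sting1 and Zc3hav1 had no match in this window, so 5 of 9 members had one. The canonical start of Mavs (131075980) lies inside its gene, which begins at 131075442. That of Zc3hav1 (38331831) also lies inside its gene, which reaches to 38332504 on the minus strand. Windows at the outermost starts were not searched. Among 21623 protein-coding genes of the table, 3.83% had a match in the same window. A match is a run of letters, not a measured binding site.

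Libraries held 28354674 to 40289411 counts over named genes, and members had 227 to 11177 counts in each library, far above the 3 counts that a count of 0 could hide (0.0754 to 0.0976 CPM, counting error only). On the principal component that held 56.7% of the variance, the imiquimod-dorsal libraries lay apart from all others, and imiquimod-ear 5 (-30.98) fell next to control 5 (-33.22), away from the other imiquimod-ear libraries (-4.94 to 4.42). As markers of the labelled tissue, all 6 B cell, 6 T cell and 6 spleen stromal genes had counts in every library. Markers of pancreas, an organ beside the spleen, summed to at most 255 CPM in imiquimod-dorsal and 12.9 CPM elsewhere, and those of fat to at most 27.7 CPM. In bulk spleen RNA, fewer cells of a type and less RNA per cell cannot be told apart.

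RIG-I-like receptor mRNA was lower in the spleens of imiquimod-treated mice, most after treatment of the back, and the family did not fall evenly. Rigi (ENSMUSG00000040296, 40203772 to 40239852 on chromosome 4) stood at 143, 225 and 174 CPM (read counts relative to library size, scaled by the TMM method) in controls 2, 4 and 5. It stood at 44.8, 38.3, 40.8 and 43 CPM in imiquimod-dorsal 2 to 5. In imiquimod-ear 1, 3, 4 and 5 it was at 84.7, 57.6, 70.7 and 106 CPM. Both imiquimod groups lay below every control, and imiquimod-dorsal below every imiquimod-ear library. Such separation was common: imiquimod-dorsal and control did not overlap in 61.1% of all genes. The share was 24.6% for imiquimod-ear against control and 42.9% for imiquimod-ear against imiquimod-dorsal. Of the members, 8, 7 and 6 did not overlap in these comparisons, in that order. IL-23-ear 1 to 3 held 162, 252 and 216 CPM of Rigi, within and above the control range. Its log2 fold change from control was -2.11 ± 0.21 (SE, adjusted p = 3.95e-06) in imiquimod-dorsal and -1.18 ± 0.20 (adjusted p = 0.00367) in imiquimod-ear, where each unit on the log2 scale is a factor of 2. Each adjusted p is from edgeR's quasi-likelihood test, corrected over all 15159 genes.

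Ifih1 (ENSMUSG00000026896, 62425714 to 62476607 on chromosome 2) encodes MDA5, which recognises long RNA duplexes. It was at 52.9, 92.1 and 75.5 CPM in controls 2, 4 and 5, and at 40.1, 29.6, 27.5 and 35.1 CPM in imiquimod-dorsal 2 to 5. Imiquimod-ear 1, 3, 4 and 5 held 44.1, 25.4, 31.3 and 45.1 CPM. The groups given imiquimod thus lay side by side below the lowest control, and overlapped each other. It was at 63.3, 115 and 82.5 CPM in IL-23-ear 1 to 3. The change from control was -1.15 ± 0.25 (adjusted p = 0.00173) for the back and -1.01 ± 0.25 (adjusted p = 0.0152) for the ear. Leaving out control 4 ended the ear call (-0.85, adjusted p = 0.0761).

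Dhx58 (ENSMUSG00000017830, 100585710 to 100595097 on chromosome 11), the LGP2 gene, had the lowest log2 fold change of these 3 receptors at either site. Controls 2, 4 and 5 held 53.1, 109 and 87.4 CPM and imiquimod-dorsal 2 to 5 held 14.5, 12, 9.86 and 15 CPM. Imiquimod-ear 1, 3, 4 and 5 lay between them without overlap, at 32.8, 16.2, 24 and 38.7 CPM. IL-23-ear 1 to 3 were at 77.4, 133 and 102 CPM. The fall was -2.69 ± 0.32 (adjusted p = 1.73e-05) in imiquimod-dorsal, or 6.47-fold, and -1.57 ± 0.30 (adjusted p = 0.00567) in imiquimod-ear.

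The balance of the family within a library does not depend on scaling. Reads of Rigi per read of Ifih1 were 2.48 ± 0.197 (SD, n = 3) in the controls, 1.28 ± 0.155 (n = 4) in imiquimod-dorsal, 2.2 ± 0.192 (n = 4) in imiquimod-ear and 2.46 ± 0.228 (n = 3) in IL-23-ear. No imiquimod-dorsal library, at 1.12 to 1.48, reached the lowest library of another group, at 1.92. Reads of Dhx58 per read of Ifih1 went from 1.11 ± 0.0975 in the controls to 0.388 ± 0.0331 in imiquimod-dorsal and 0.751 ± 0.0913 in imiquimod-ear, and were 1.21 ± 0.0439 in IL-23-ear. Back and ear differed by 0.79 on the log2 scale for Rigi and 0.95 for Dhx58, ear minus back, each with an exact two-sided permutation p of 0.0286, the smallest that 4 against 4 libraries can give. Adjusted over the 6 ratio comparisons computed, this was 0.0343. The Rigi ratio in imiquimod-ear against control did not pass (-0.17, exact permutation p = 0.114). These ratios were chosen after the values had been seen, and the adjustment does not cover that choice.

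**Figure D1:**
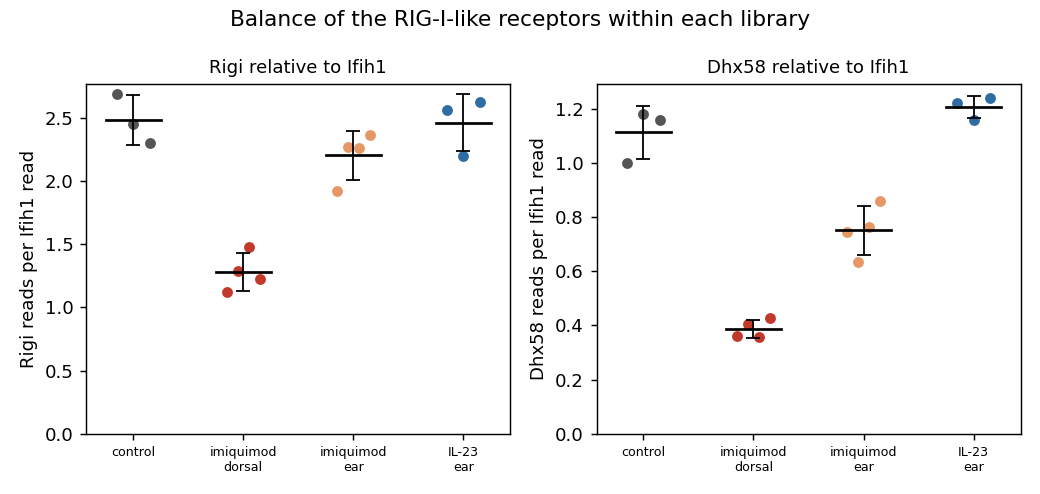
Reads of Rigi (left) and Dhx58 (right) per read of Ifih1 in each library, by group; points are mice, bars the mean and SD. The 4 imiquimod-dorsal libraries lie below all others, at 1.12 to 1.48 for Rigi and 0.359 to 0.426 for Dhx58.

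Mavs, the adaptor that RIG-I and MDA5 share, did not fall with its receptors. Mavs (ENSMUSG00000037523, 131075442 to 131096740 on chromosome 2) was at 46.5, 46.6 and 56.6 CPM in controls 2, 4 and 5, and at 62.4, 63.9, 66.2 and 60.9 CPM in imiquimod-dorsal 2 to 5. All 4 imiquimod-dorsal libraries were above the highest control, yet the difference of 0.34 ± 0.18 did not pass (adjusted p = 0.114). This separation depends on the TMM factors, 1.099 to 1.102 in the controls and 0.835 to 0.902 in imiquimod-dorsal. Control 5 held 2187 Mavs counts of 35086665, and imiquimod-dorsal 4, the highest of its group after scaling, held 2035 of 35091553. IL-23-ear 3 stood at 95 CPM, against 50.4 and 54.2 CPM in IL-23-ear 1 and 2. Without that library, which widens the spread used for every group, the dorsal difference of 0.29 passed (adjusted p = 0.0187). Imiquimod-ear 1, 3, 4 and 5 held 51, 51.2, 43.7 and 40.6 CPM, across the control range (-0.10 ± 0.18, adjusted p = 0.726). Reads of Rigi per read of Mavs, not corrected for exon length, were 3.07 to 4.84 in the control libraries. In the imiquimod-dorsal libraries this ratio was 0.599 to 0.717, so that Rigi reads alone no longer outnumbered Mavs reads. In imiquimod-ear this ratio was 1.13 to 2.62, and in IL-23-ear 2.27 to 4.65.

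Of the sensors that act directly, Zbp1 and Eif2ak2 fell with the RIG-I-like receptors, and Zc3hav1 fell less. Zbp1 (ENSMUSG00000027514, 173033815 to 173060724 on chromosome 2) had the lowest log2 fold change of the 9 members after treatment of either site. It was at 84.6, 203 and 166 CPM in controls 2, 4 and 5, and at 26.2, 13.9, 17.7 and 24.9 CPM in imiquimod-dorsal 2 to 5. Imiquimod-ear 1, 3, 4 and 5 held 61.1, 44.5, 39.6 and 55.6 CPM, between those groups and apart from both. The IL-23-ear libraries, at 146, 249 and 216 CPM, reached above the highest control. The log2 fold change was -2.87 ± 0.31 (adjusted p = 1.09e-05) in imiquimod-dorsal, a 7.31-fold fall, and -1.59 ± 0.30 (adjusted p = 0.00527) in imiquimod-ear. Control 2 held less than the other controls in Zbp1, as in Rigi, Ifih1, Dhx58, Eif2ak2 and Cgas. Without it Zbp1 also passed for both sites.

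Eif2ak2 (ENSMUSG00000024079, 79159972 to 79190012 on chromosome 17) followed Ifih1 closely in CPM, before correction for exon length, and in how its groups lay. Controls 2, 4 and 5 were at 52.9, 108 and 82.7 CPM, imiquimod-dorsal 2 to 5 at 39.5, 37.7, 30.3 and 38.5 CPM. Imiquimod-ear 1, 3, 4 and 5 were at 46, 30.1, 43.7 and 49.9 CPM, overlapping the imiquimod-dorsal libraries and below the controls. IL-23-ear 1 to 3 were at 69.5, 134 and 92.5 CPM. The gene fell by 1.15 ± 0.25 on the log2 scale (-1.15, adjusted p = 0.00183) in imiquimod-dorsal, and was at -0.94 ± 0.25 (adjusted p = 0.022) in imiquimod-ear. Leaving out control 4 (-0.71, adjusted p = 0.11) ended the ear call, as did leaving out imiquimod-ear 3 (-0.83, adjusted p = 0.0562) and fitting only those groups (-0.96, adjusted p = 0.054).

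Zc3hav1 (ENSMUSG00000029826, 38282221 to 38332504 on chromosome 6) was the member with the most reads. It held 280, 327 and 273 CPM in controls 2, 4 and 5, then 234, 252, 231 and 215 CPM in imiquimod-dorsal 2 to 5 and 189, 184, 224 and 223 CPM in imiquimod-ear 1, 3, 4 and 5. Neither imiquimod group reached the lowest control. The falls were -0.33 ± 0.10 (adjusted p = 0.00897) for the back and -0.52 ± 0.10 (adjusted p = 0.00417) for the ear. Here the ear group was the lower, though ear and back did not differ past the threshold (-0.19 ± 0.09, adjusted p = 0.103). IL-23-ear libraries, at 264, 309 and 311 CPM, lay across the controls.

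The DNA sensing pair showed smaller differences. Cgas (ENSMUSG00000032344, 78337802 to 78350535 on chromosome 9) was the least abundant member, at 9.77, 15.6 and 13.7 CPM in controls 2, 4 and 5. Imiquimod-dorsal 2 to 5, at 12.4, 15.1, 11.7 and 13.9 CPM, covered the same range (0.03 ± 0.19, 95% interval -0.37 to 0.43, adjusted p = 0.903). Imiquimod-ear 1, 3, 4 and 5 were at 9.67, 6.52, 10.1 and 10.1 CPM, and IL-23-ear 1 to 3 at 10.9, 14.8 and 14.6 CPM. The ear difference from control of -0.51 ± 0.19 did not pass (adjusted p = 0.0661). It passed without control 2 (-0.71, adjusted p = 0.034), without imiquimod-ear 5 (-0.60, adjusted p = 0.0352) and with DESeq2 (-0.54, adjusted p = 0.0286).

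Sting1 (ENSMUSG00000024349, 35866732 to 35873607 on chromosome 18) is the adaptor to which cGAMP binds. It stood at 88.3, 96.7 and 92.2 CPM in controls 2, 4 and 5, and at 78.4, 62.5, 82.9 and 76.8 CPM in imiquimod-dorsal 2 to 5. The imiquimod-dorsal libraries lay below all others, with a log2 fold change of -0.30 ± 0.08 (adjusted p = 0.00655). In imiquimod-ear 1, 3, 4 and 5 Sting1 was at 109, 98.6, 103 and 99.5 CPM, each above the highest control, but the difference of 0.15 ± 0.08 did not pass (adjusted p = 0.213). IL-23-ear 1 to 3 held 93.6, 98.4 and 96.8 CPM.

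**Figure D2:**
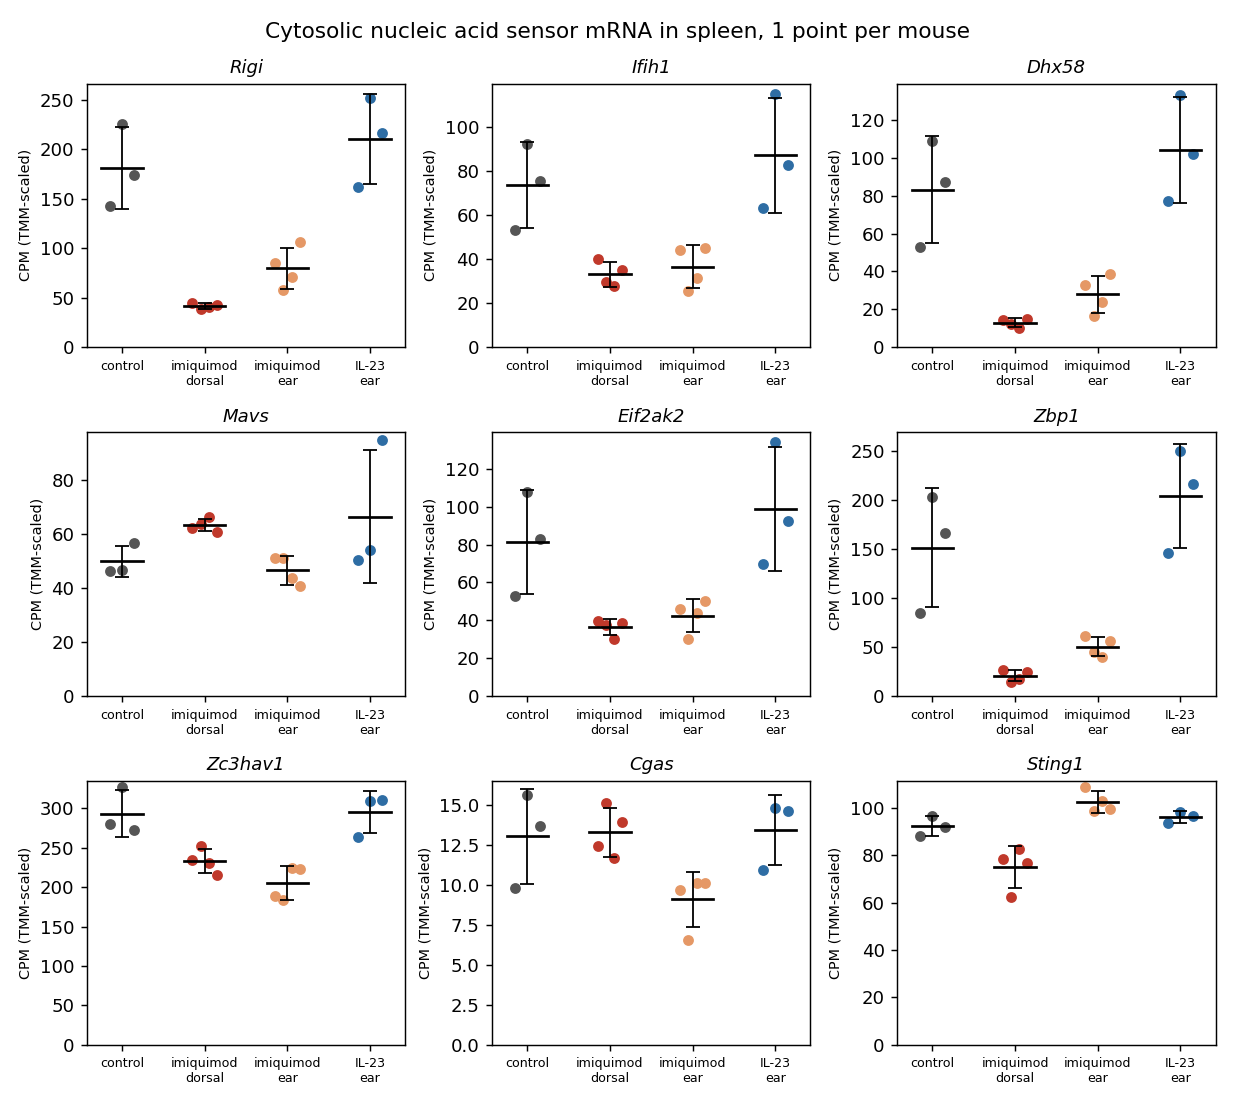
TMM-scaled CPM of the 9 genes in each of 14 spleens, by group, on linear axes from 0; points are mice, bars the mean and SD. Rigi, Dhx58 and Zbp1 step down from control to imiquimod-ear to imiquimod-dorsal, Ifih1 and Eif2ak2 lie at like levels in both imiquimod groups, and Mavs, Cgas and Sting1 do not follow these patterns.

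Counted over the set, 7 of 9 members fell after imiquimod on the back and none rose, where 59.8% of all genes tested passed in either direction 27.6% fell and 32.3% rose. Their median log2 fold change was -1.15, against 0 over all genes. With imiquimod on the ear 6 of 9 fell and none rose, where 21.2% of genes passed (6.98% lower and 14.3% higher), and the medians were -0.94 and 0.02. Without control 4 the ear count was 4. Without imiquimod-ear 5, the library nearest the controls, the same 6 members passed, from -1.81 for Dhx58 to -0.60 for Zc3hav1, and Cgas passed too. The number of genes called in that comparison, 3219, was itself unsteady: it was 1389 without control 2, 1066 without control 4, 1904 without imiquimod-ear 1, 1975 without imiquimod-ear 3 and 4977 without imiquimod-ear 5. Both comparisons share the control libraries, so their results are not independent. The 5 members with a match to the response element core ranged from -2.87 to -1.15 for the back and from -1.59 to -0.94 for the ear. The 4 without one ranged from -0.33 to 0.34 and from -0.52 to 0.15. This split is a description of 9 chosen genes and rests on their canonical starts.

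**Figure D3:**
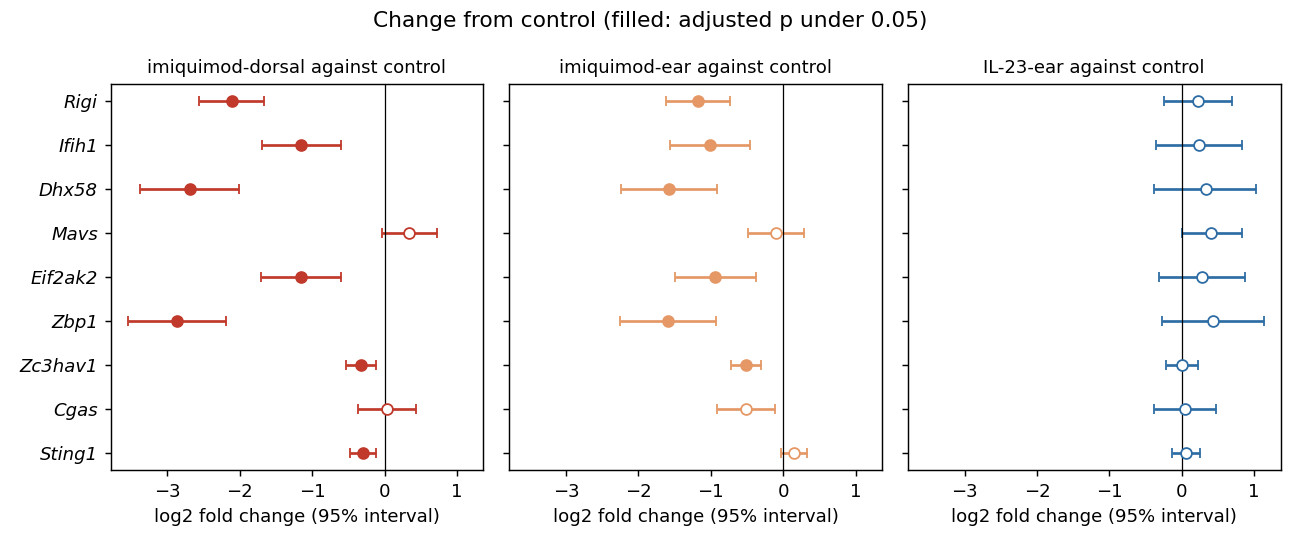
Log2 fold change from control with its 95% interval for the 9 genes, in spleens after imiquimod on back or ear or IL-23 in the ear; filled points have an adjusted p under 0.05. Filled points number 7, 6 and 0, and the change is most negative for Zbp1, at -2.87 and -1.59.

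Markers of other cell types moved with the dorsal comparison. All 6 T cell markers fell there, their summed level being 108 to 138 CPM against 485 to 731 CPM in the controls, and all 5 NK cell markers fell, from 171 to 196 CPM down to 37.7 to 59.5 CPM. Of 6 conventional dendritic cell markers 5 fell (91.6 to 119 against 172 to 212 CPM), of 5 plasmacytoid dendritic cell markers 4 fell (27.1 to 47.6 against 69.6 to 77.6 CPM) and of 6 B cell markers 3 fell (2310 to 2750 against 3160 to 3360 CPM). Spleen stromal markers fell in 4 of 6 (386 to 479 against 825 to 1150 CPM) and monocyte markers in 1 of 6 (453 to 532 against 523 to 582 CPM), and 1 of 5 red pulp macrophage markers rose (732 to 1040 against 969 to 1180 CPM). All 8 erythroid markers rose (54400 to 90800 against 7880 to 25000 CPM) and all 6 neutrophil markers rose (625 to 1120 against 66.1 to 77.8 CPM). No marker of these lists was at 0 in a group. The part of these shifts in the dorsal falls was not tested. In imiquimod-ear the summed T cell level was 347 to 630 CPM, overlapping the controls, with 1 of 6 markers lower, and none of the 8 erythroid markers passed. The summed NK cell level, at 113 to 157 CPM, lay below every control with 1 of 5 markers lower, as did the B cell level at 2620 to 3130 CPM with 1 of 6 lower. Monocyte markers fell in 2 of 6 (412 to 561 CPM) and plasmacytoid dendritic cell markers in 1 of 5 (62.8 to 72.1 CPM), and 2 of 6 neutrophil markers rose (77.4 to 303 CPM). No conventional dendritic, red pulp macrophage or stromal marker passed for the ear. The part of the ear shifts in the falls of the sensors was not tested either.

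Back and ear were compared directly. The treated site cannot be told apart here from the skin area covered or the amount of cream. The controls had vehicle on both sites. Against 47.7% of all genes tested, 6 of 9 members differed between imiquimod-ear and imiquimod-dorsal: 4 were higher in ear (23.3% of genes were) and 2 lower (24.5%). Zbp1 was higher by 1.28 ± 0.29 (adjusted p = 0.00335), Dhx58 by 1.12 ± 0.29 (adjusted p = 0.00772), Rigi by 0.94 ± 0.19 (adjusted p = 0.0016) and Sting1 by 0.45 ± 0.08 (adjusted p = 0.000353). Ifih1 (0.14, 95% interval -0.37 to 0.65) and Eif2ak2 (0.22, -0.30 to 0.74) did not pass, with intervals that leave room for either sign. Cgas was lower in ear by -0.54 ± 0.17 (adjusted p = 0.0203), but not when imiquimod-dorsal 3 (-0.47, adjusted p = 0.0603) or imiquimod-ear 3 (-0.39, adjusted p = 0.0617) was left out. Mavs was lower by -0.44 ± 0.17 (adjusted p = 0.0412), and leaving out any control, imiquimod-dorsal or imiquimod-ear library took that call away, with adjusted p from 0.0502 without control 5 to 0.122 without imiquimod-ear 5.

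IL-23 in the ear skin was not followed by a detectable change in these genes. The controls had petrolatum on the skin and no group was injected with a vehicle, so IL-23 and the injection cannot be told apart. None of the 9 members passed in edgeR, DESeq2 or limma-voom, where 0.0528% of all genes (8 of 15159) passed in edgeR (0.0066% lower and 0.0462% higher). At an unadjusted p under 0.05 there was 1 member, Mavs, and 1305 genes. Mavs stood at 95 CPM in IL-23-ear 3, against 50.4 and 54.2 CPM in IL-23-ear 1 and 2. Its log2 fold change of 0.41 went as low as 0.05 over the alternative fits. All 9 fold changes were above 0, from 0.01 for Zc3hav1 to 0.43 for Zbp1, beside a median of 0.01 over all genes. The 95% intervals were -0.27 to 1.13 for Zbp1, -0.25 to 0.69 for Rigi, -0.38 to 1.03 for Dhx58 and -0.13 to 0.25 for Sting1, so changes of these sizes were within the error. None of 6 T cell, 6 B cell, 5 NK cell or 8 erythroid markers passed in this comparison, with summed erythroid levels of 2370 to 9450 CPM beside 7880 to 25000 CPM in the controls. The count of 8 genes was 0, 1 or 5 without 13 of the 14 libraries taken singly, and 12 without imiquimod-ear 5.

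IL-23-ear spleens therefore stood apart from both imiquimod groups. Agent, route (injection or cream) and schedule differed together between these groups and cannot be told apart here. Against imiquimod-ear 6 of 9 members were higher, where 17.3% of genes passed (10.2% lower and 7.06% higher): Zbp1 by 2.02 ± 0.30 (adjusted p = 0.00203), Dhx58 by 1.90, Rigi by 1.39, Ifih1 by 1.25, Eif2ak2 by 1.22 and Zc3hav1 by 0.52, with adjusted p up to 0.00814. The number of genes called there was 2623, and 1396, 1654 and 4463 without imiquimod-ear 1, 3 and 5, or 1326, 1647 and 1101 without IL-23-ear 1, 2 and 3. Against imiquimod-dorsal 7 of 9 were higher, where 57.1% of genes passed (30% lower and 27.1% higher), from 0.34 for Zc3hav1 to 3.30 for Zbp1 (adjusted p = 4e-06). Cgas (0.02) and Mavs (0.07) did not pass there, with 95% intervals of -0.38 to 0.42 and -0.31 to 0.45.

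**Figure D4:**
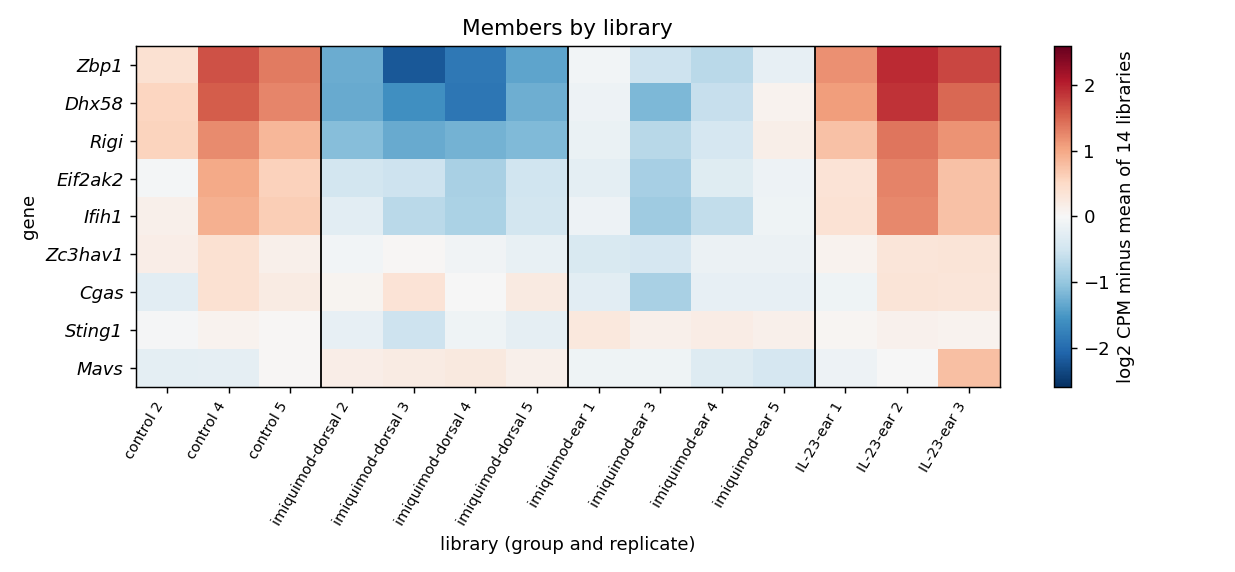
Log2 CPM of each gene minus its mean over the 14 libraries; columns are libraries by group, rows the 9 genes. The upper 3 rows are lowest in the 4 imiquimod-dorsal libraries and the upper 5 highest in IL-23-ear 2, Ifih1 and Eif2ak2 are lowest in imiquimod-ear 3, and Mavs is highest in IL-23-ear 3.

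Levels were set side by side per kilobase of exon, since the exon length of the members runs from 3.19 kb for Sting1 to 11.37 kb for Mavs. In the controls Zbp1 led, at 35.2 ± 14.1 CPM per kb (SD, n = 3), followed by Sting1 (29.0 ± 1.31), Zc3hav1 (28.7 ± 2.87), Dhx58 (24.6 ± 8.34) and Rigi (21.4 ± 4.95). Eif2ak2 (14.9 ± 5.08), Ifih1 (8.17 ± 2.19), Mavs (4.39 ± 0.513) and Cgas (2.51 ± 0.571) came after them. Neighbours from Zbp1 down to Ifih1 lay within their SDs of each other, while Mavs and Cgas were set apart. In imiquimod-dorsal spleens Sting1 (23.6 ± 2.76, n = 4) and Zc3hav1 (22.8 ± 1.46) stood alone at the top. The next was Eif2ak2 at 6.72 ± 0.775, and Zbp1, at 4.82 ± 1.37, was within its spread of Mavs at 5.57 ± 0.198. In imiquimod-ear spleens Sting1 led at 32.2 ± 1.47, ahead of Zc3hav1 (20.1 ± 2.11) and Zbp1 (11.7 ± 2.29), each beyond the SDs. IL-23-ear spleens had the control order apart from Dhx58, at 30.9 ± 8.24 beside Sting1 at 30.2 ± 0.776, a difference within the spread. Zbp1 was at 47.5 ± 12.3 there.

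Other genes of these pathways were taken from fixed lists, whose counts stand beside 27.6% of all genes lower and 32.3% higher for the back and 6.98% lower and 14.3% higher for the ear. Of 20 tested genes of RNA sensor signalling, 11 fell and 4 rose in imiquimod-dorsal (median -0.24), and 2 fell and 1 rose in imiquimod-ear (median -0.09). Irf7, the interferon regulatory factor that is itself induced by interferon, went from 603 ± 253 CPM in the controls to 33.1 ± 8.34 CPM in imiquimod-dorsal (-4.19 ± 0.40, adjusted p = 4.75e-06) and 157 ± 55.8 CPM in imiquimod-ear (-1.94 ± 0.37, adjusted p = 0.0054). Irf3, the constitutive factor that MAVS and STING activate, differed by far less: -0.20 ± 0.06 (adjusted p = 0.0122) for the back and -0.01 ± 0.06 (adjusted p = 0.922) for the ear. The kinase gene Tbk1 fell in imiquimod-dorsal (-0.45 ± 0.07, adjusted p = 9.54e-05), as did Ikbke, encoding IKKε (-1.17 ± 0.23, adjusted p = 0.000743). Neither passed in imiquimod-ear (-0.13 and -0.36). Trim25, a ubiquitin ligase that acts with RIG-I and ZAP, fell in imiquimod-dorsal (-0.85 ± 0.11, adjusted p = 1.89e-05). In imiquimod-ear Trim25 was at -0.35 ± 0.11 (adjusted p = 0.0378). This did not hold without control 4 (-0.25, adjusted p = 0.16) or imiquimod-ear 1 or 4 (adjusted p = 0.0776 and 0.086). Zcchc3, a co-sensor of RNA, rose in imiquimod-dorsal (1.5 ± 0.19, adjusted p = 1.45e-05). In imiquimod-ear Zcchc3 was at 0.52 (adjusted p = 0.0545), and passed without imiquimod-ear 5 (0.64, adjusted p = 0.00323).

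Genes around cGAS and STING were mixed, with 4 of 15 higher and 4 lower for the back (median -0.05), shares near those of all genes, and 4 higher and 2 lower for the ear (median 0.02). Rnf5, a ubiquitin ligase known to mark STING for degradation, rose for both sites (0.64 ± 0.06 and 0.35 ± 0.06, adjusted p = 2.59e-06 and 0.00372). Aim2, a DNA sensor that builds an inflammasome, was at -0.23 ± 0.08 for the back (adjusted p = 0.022), and above the threshold once imiquimod-dorsal 2 (0.0615) or 3 (0.0547) was left out, and at 0.02 for the ear. In the list of nucleic acid clearance and editing, 7 of 14 fell and 4 rose for the back, and 4 fell and 3 rose for the ear. Adar, which edits self RNA duplexes and so hides them from MDA5, fell at both (-1.38 ± 0.12 and -0.70 ± 0.12, adjusted p = 1.47e-06 and 0.00353). Samhd1, which breaks down deoxynucleotides, fell at both as well (-1.15 and -0.58). Trex1, the exonuclease that limits DNA for cGAS, fell for the back (-1.40 ± 0.30, adjusted p = 0.00126). For the ear it was at -1.05 ± 0.29 (adjusted p = 0.0249), which did not hold without control 4 (-0.85, adjusted p = 0.112), control 5 (0.0508), or imiquimod-ear 1, 3 or 4 (0.054, 0.066 and 0.0514). Rnaseh2c, of the complex that removes RNA from DNA, rose (1.23 ± 0.10, adjusted p = 9.03e-07, for the back).

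Partners of the directly acting sensors did not share a direction. Of 8 cell death genes linked to ZBP1, 3 fell and 1 rose for the back and 2 fell for the ear. Ripk3, the kinase that ZBP1 recruits, did not pass for either site (-0.15 and 0.20). Mlkl, the pore former of necroptosis, was at 9.24 ± 2.18 CPM in the controls and 5.12 ± 1.86 CPM in imiquimod-dorsal (-0.85 ± 0.27, adjusted p = 0.0146), though not once control 5 was left out (-0.71, adjusted p = 0.0581). Of 12 genes around eIF2 (its other kinases, its subunits, regulators of PKR, phosphatase subunits and the downstream factor Atf4), 8 rose and none fell for the back (median 0.69). The 8 were Eif2ak1, the subunit genes Eif2s1, Eif2s2 and Eif2s3x, Tarbp2, Ppp1r15a, Ppp1r15b and Atf4, so 1 of the 3 other kinases was among them. All but Eif2ak1 and Atf4 were named after their values had been seen. Eif2ak1, the haem-regulated kinase of red cell precursors, rose from 96.3 ± 4.27 to 346 ± 69.9 CPM (1.84 ± 0.16, adjusted p = 1.34e-06), beside the 8 erythroid markers that rose there. Eif2ak3 (-0.16 ± 0.11) and Eif2ak4 (-0.20 ± 0.10) did not pass for the back, although Eif2ak4 did without control 5 (-0.36, adjusted p = 0.00692) and without imiquimod-ear 3 or 5 or IL-23-ear 2 or 3, and Eif2ak3 did without imiquimod-ear 3 (-0.21, adjusted p = 0.018). Of 12 ZAP partners and PARP relatives, 8 fell and 2 rose for the back (median -0.58), and 7 fell and 1 rose for the ear (median -0.36). Khnyn, a nuclease that acts with ZAP, fell for the back (-0.76 ± 0.07, adjusted p = 2.53e-06). For the ear it was at -0.29 ± 0.07 (adjusted p = 0.0157), which did not hold without control 4 (-0.27, adjusted p = 0.0685). Parp10 fell for both sites (-1.54 ± 0.18 and -0.97 ± 0.18, adjusted p = 1.44e-05 and 0.00469).

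Interferon genes other than Ifng were at or near the limit of detection. Of 19 interferon genes, 10 had 0 counts in all 14 libraries, Ifnb1 among them, 8 more had at most 4 counts in a library, and only Ifng could be tested. Ifng was at 1.04 ± 0.246 CPM in the controls and 0.469 ± 0.283 CPM in imiquimod-dorsal (-1.13 ± 0.41, adjusted p = 0.0275). This did not hold when control 5 (-0.98, adjusted p = 0.0919) or imiquimod-dorsal 5 (-1.10, adjusted p = 0.055) was left out. Of 12 genes of interferon signalling, 10 fell and 1 rose for the back, and 5 fell for the ear. Among them was Irf9, which encodes the DNA-binding subunit of ISGF3 (-1.31 ± 0.17, adjusted p = 2.08e-05). In imiquimod-ear Irf9 was at -0.74 ± 0.17 (adjusted p = 0.00895), which did not pass without control 4 (-0.68, adjusted p = 0.0507). Of 24 other type I interferon response genes 22 fell and 1 rose for the back (median -2.72), and 20 fell and none rose for the ear (median -1.60). In IL-23-ear no gene of these lists passed. The ear counts leaned on single libraries: without control 4 the number of genes passing was 1 for RNA sensor signalling, 2 for DNA sensor signalling, 4 for clearance, 1 for ZBP1 partners, 4 for ZAP partners, 2 for interferon signalling and 12 for the other interferon response genes. Without control 2 it was 4 for clearance and 1 for ZBP1 partners, and the ZBP1 count was 1 too without control 5, imiquimod-dorsal 3 or 5, imiquimod-ear 1, 3 or 4, or IL-23-ear 3. Without imiquimod-ear 1 it was 1 for RNA and 3 for DNA sensor signalling, and without imiquimod-ear 5 it was 6 for RNA sensor signalling.

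**Figure D5:**
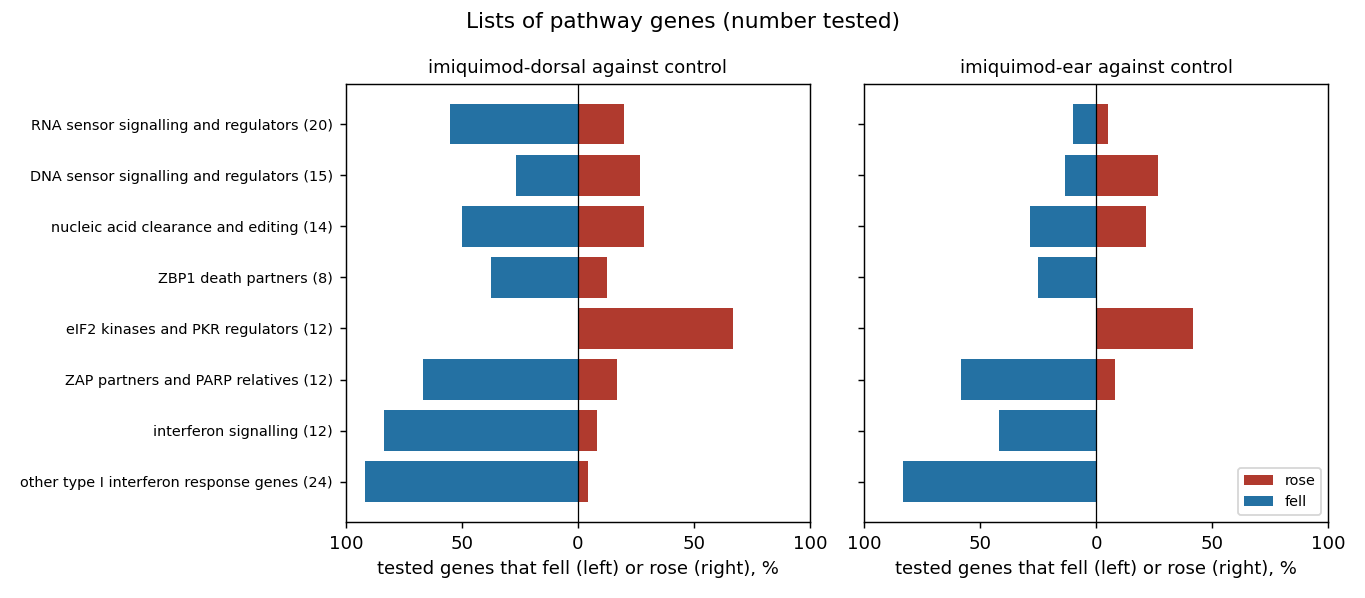
Share of tested genes in each list that fell (left of 0) or rose (right of 0), in percent, for imiquimod-dorsal and imiquimod-ear against control; the number tested stands beside the list's name. Of 24 other type I interferon response genes 22 and 20 fell, while of 12 genes in the list of eIF2 kinases and PKR regulators 8 and 5 rose, the latter count being 1 without control 2 or 4, 2 without imiquimod-ear 1 and 3 without imiquimod-ear 3 or 4, imiquimod-dorsal 3, 4 or 5, or any IL-23-ear library.

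The members' own likeness, taken as the root mean square difference of log2 CPM after each gene was centred on its mean over the 14 libraries, put Ifih1 and Eif2ak2 closest, at 0.13. Dhx58 and Zbp1 were nearest to each other at 0.27, and Mavs and Zbp1 were the most unlike pair, at 1.40. Outside the members, Rigi was most like Ifi203 (0.11) and Hsh2d (0.12), Dhx58 most like Phf11d (0.15) and Ifi214 (0.18), and Zbp1 most like Slfn8 (0.20) and Rnf213 (0.23). Ifi203, Ifi214, Phf11d and Slfn8 belong to families of similar genes that may share reads. Both Ifih1 and Eif2ak2 had Gbp7 and Rilpl1 as their nearest genes, each at 0.16. Zc3hav1 was nearest to Trim56 (0.07), Sting1 to Map3k10 (0.07), Cgas to Tor1aip2 (0.18) and Mavs to Mat2a (0.11). The measure is not scaled by a gene's own spread, so small values come easily to genes that vary little. The SD of log2 CPM was 0.21 for Sting1, 0.26 for Zc3hav1, 0.31 for Mavs and 0.35 for Cgas. It was 1.32 for Dhx58 and 1.41 for Zbp1.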

How the data were processed

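The authors deposited a table of raw read counts per gene and library, as its whole numbers show. It was used as deposited. DESeq2 1.38.3, featureCounts 2.0.3, fastp 0.23.2, StringTie 2.2.1, HISAT2 2.2.1 and GRCm39 are named without roles, per the submitters' processing notes. For the annotation and for reads with several matches, nothing is stated in the sources used here. Libraries were not strand-specific and were read from both ends with 150 bases, and 1 batch is named, per the labels' protocols. Without strand, reads of overlapping opposite genes cannot be told apart; Dhx58, Mavs, Eif2ak2, Cgas and Zc3hav1 overlap antisense noncoding RNAs in GENCODE mouse release 39.

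Of 22740 entries, 624 assembled loci without a gene (0.484% to 0.674% of counts) were left out. Genes with enough counts (filterByExpr, minimum count 10) were scaled by TMM and fitted over all 14 libraries with edgeR 4.0.16 in R 4.3.3 (robust quasi-likelihood F test, 10 residual degrees of freedom, Benjamini-Hochberg over 15159 genes, threshold 0.05). TMM factors were 1.099 to 1.102 in the controls and 0.835 to 0.902 in imiquimod-dorsal. They were 0.995 to 1.087 in imiquimod-ear and 1.034 to 1.081 in IL-23-ear. Exon lengths are unions over transcripts. Alternatives were DESeq2 1.42.0, limma-voom (limma 3.58.1), RLE size factors, no low-count filter, haemoglobin and immunoglobulin genes taken out, only the groups compared in the fit, the replicate number as a block, and each library left out in turn. The edgeR script was tested on simulated counts.

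The members and lists were chosen with earlier results of these data known. Named are the 9 members, a fixed set of pathway genes whatever their result, up to 2 further genes per list with the smallest adjusted p in a comparison with control, and the 2 tested genes most like each member. Not every gene under this rule is reported here. The labels call the samples biological replicates without naming a mouse for each, and replicates differed beyond sampling noise (chi-square per degree of freedom 24.1 to 141). The lists cover RNA and DNA sensor signalling, nucleic acid clearance, ZBP1 partners, eIF2 kinases, ZAP partners, interferon genes, interferon signalling and other interferon response genes, with markers of B, T and NK cells, red pulp macrophages, monocytes, conventional and plasmacytoid dendritic cells, neutrophils, erythroid cells, spleen stroma, pancreas and fat.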

Additional observations from a re-analysis of the deposited data

Results flagged for a closer look

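Cgas in imiquimod-ear 3 stood far from its group, at 6.52 CPM where the nearest of the other 3 libraries held 9.67 CPM. Its gap took up 0.869 of the group's range. Chance alone sets apart about 1 group in 20.

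Imiquimod-ear and imiquimod-dorsal differed in 6 members by edgeR's test of ear minus back. Rigi (0.94), Dhx58 (1.12), Zbp1 (1.28) and Sting1 (0.45) were higher in imiquimod-ear, and Mavs (-0.44) and Cgas (-0.54) lower. Of all genes tested, 47.7% differed in this comparison. The Mavs call was lost when any control, imiquimod-dorsal or imiquimod-ear library was left out (adjusted p = 0.0502 to 0.122), and the Cgas call without imiquimod-dorsal 3 (-0.47, adjusted p = 0.0603) or imiquimod-ear 3 (-0.39, adjusted p = 0.0617).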

How the results depend on the processing

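Over 21 alternatives, 1095 of 1134 member values kept their side of the threshold, 25 lost the call, 14 gained one and none reversed. Among the 1095 were 32 that changed sign where neither fit passed. No member called in imiquimod-dorsal against control lost its call. For imiquimod-ear against control, 3219 genes were called, but 1126 with only those groups fitted and 1066 to 4977 when 1 library was left out. For IL-23-ear against control the 8 genes became 133 with DESeq2, 15 with limma-voom, 0 with RLE size factors, without a filter or with only those groups, and 0 to 12 when 1 library was left out. For IL-23-ear against imiquimod-ear the 2623 genes became 1247 with only those groups, and 1101 to 4463 when 1 library was left out. The cause was not tested. Fits with fewer groups had fewer residual degrees of freedom.

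Correlations of deviations over 13 same-numbered pairs ran from -0.24 to 0.18, and 2 of 14 libraries correlated best with their own number. With so few libraries per group, these values cannot show whether the labels' replicate numbers paired the samples. With the replicate block, imiquimod-ear against control called 0 members (6 without it) and 311 genes, IL-23-ear against control 0 genes and IL-23-ear against imiquimod-ear 1261 genes.

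Depth did not limit the members, with at least 227 counts in each library, but only 1 of 19 interferon genes could be tested.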
